A study of Mus musculus with 4 samples.

Results

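The transcripts described here are 10 genes known as direct targets of the tumour suppressor p53, namely Cdkn1a, Mdm2, Plk2, Fas, Ccng1, Bax, Bbc3, Gadd45a, Aen and Sesn1. They were chosen by name, with earlier results of these data known, among 17711 genes named on an Illumina mouse bead array. Of the 10 genes, 8 had a probe under their name, 17 probes in all, and every one of these probes is given below. Bax, which opens the mitochondrial outer membrane in apoptosis, and Sesn1, a stress-induced inhibitor of growth signalling, had no probe of that name in the annotation used and were not analysed here. Taking the brightest probe of each gene, 7 of the 8 were detected somewhere, and 6 of them in every one of the 4 libraries. Detection means that the signal stood above the array's own background at a detection p-value under 0.01.

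The cells were immortalized mouse fibroblasts, and each of 4 transfections gave 1 library. One culture was given transfectant only, another a control miRNA, another miR-141 and the last miR-200c. Every culture, controls included, was treated with 400 µM H2O2 for 2 hours, ending the 48 hours of transfection, so no library shows these genes without peroxide. With 1 library per group no difference below has a replicate check or a p-value; the small number of arrays sets the precision. Fewer cells expressing a gene and less RNA per cell cannot be told apart in such bulk samples.

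p53 is a transcription factor that accumulates after DNA damage, oxidative stress and other insults. It binds pairs of a 10-base element near its target genes and turns on genes for cell cycle arrest, repair and apoptosis. Cdkn1a encodes p21, the inhibitor of cyclin-dependent kinases through which p53 halts the cycle, and Mdm2 encodes the ubiquitin ligase that marks p53 for destruction, which closes a negative feedback loop. In fibroblasts this response is known for growth arrest and senescence rather than rapid death. Whether p53 was intact or active in the immortalized cells used here was not tested. Several of these targets, Cdkn1a and Gadd45a among them, are also switched on by stress pathways that do not need p53.

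The transfected miRNAs are shown because they set the comparison. Which arm of the precursors was used is not stated in the labels, and the 3p arm is the one the miR-200 family is known for. In the RefSeq sequences (build GRCm38.p6, both on the minus strand of chromosome 6), capitals mark the seed, bases 2 to 8, which differs by 1 base (C4U, counted from the 5′ end, miR-141-3p first).
mmu-miR-141-3p, chr6:124717917-124717938: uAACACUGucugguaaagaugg
mmu-miR-200c-3p, chr6:124718324-124718346: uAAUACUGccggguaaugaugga

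The upstream promoter window of Cdkn1a is shown because Cdkn1a had the largest difference among these genes. RefSeq windows ran from 250 bases before to 50 after an annotated start site, and all 10 genes had at least 1. Capitals mark exact matches to the p53 consensus decamer, the 10-base element, which reads the same on both strands.
Cdkn1a, chr17:29090729-29091028, GRCm38.p6, plus strand: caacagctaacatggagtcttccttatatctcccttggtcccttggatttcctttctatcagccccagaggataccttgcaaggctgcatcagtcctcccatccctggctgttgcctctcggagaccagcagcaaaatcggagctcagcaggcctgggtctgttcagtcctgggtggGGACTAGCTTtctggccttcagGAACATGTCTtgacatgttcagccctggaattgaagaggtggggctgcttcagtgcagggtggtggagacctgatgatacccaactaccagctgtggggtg
The matches begin 73 and 51 bases before the start site, with 12 bases between them. The one nearer to the start is followed without a gap by 10 bases that match the decamer at 9 of 10 positions, so that this stretch of 20 bases reads as follows.
Cdkn1a element: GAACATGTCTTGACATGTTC
The second Cdkn1a window, at chr17:29093519-29093818, held no decamer.

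Exact decamers were also found in windows of 6 other genes of the 10, which are printed to show how they vary within the consensus.
Mdm2: GAACTTGCCT
Ccng1: GGGCAAGCCT
Bax: AGGCAAGCTT
Gadd45a: GGGCTAGCCC
Aen: GGGCTTGTCC
Sesn1: AAGCTTGTTT
No decamer was present in the windows of Plk2, Fas or Bbc3. Over all 27025 genes with a window, 9.55% had an exact decamer in at least 1, against 7 of these 10 genes. These 10 genes were picked as known p53 targets and had 15 windows, where the 27025 genes had 32851. The shares are therefore a description and not a test. A decamer with a neighbour matching at 9 or more positions was present in 29 of 32851 windows (0.0883%), among them those of Cdkn1a and Ccng1. A match is a description of these letters and not evidence of binding in these cells, and p53 elements outside the windows were not searched.

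Levels are given first as the raw signal, in intensity units, and then as a normalized log2 signal, in which the arrays were brought to a common distribution. The raw signals cannot be compared between libraries directly, since the mean over all probes was 246 in transfectant only, 151 in control miRNA, 198 with miR-141 and 190 with miR-200c. Levels are not compared between probes. A gene passed the rule for a miRNA when its normalized log2 difference reached 0.585 (1.5-fold) in the same direction against both controls, and it was detected with the miRNA or in both controls. As a yardstick for the spread between libraries that received neither miRNA, the standard deviation of the difference between the controls was taken over the 500 detected genes nearest in mean level. This is called the control spread below. It contains any effect of the control miRNA and stands in for, but is not, a replicate error. Over all genes detected in the 4 libraries, the standard deviation was 0.30 between the controls. It was 0.34 and 0.40 for miR-141, and 0.40 and 0.45 for miR-200c, against control miRNA and transfectant only.

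Cdkn1a was the only member that passed the rule with miR-200c. Its brighter probe had raw signals of 87.5 in transfectant only, 75.0 in control miRNA, 67.6 with miR-141 and 155 with miR-200c. Its normalized log2 signals were 5.52, 6.11, 5.35 and 7.05. The signal with miR-200c was the highest on either scale, and that with miR-141 was the lowest and not detected (detection p-value 0.011). Against control miRNA the log2 difference with miR-200c was 0.95 (1.93-fold), and against transfectant only it was 1.53 (2.89-fold). Both were larger than the control spread of 0.41, and 110 of 7202 genes considered were at least as high by the smaller of the differences from the controls.

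The second Cdkn1a probe gave raw signals of 79.4, 58.2, 53.5 and 111 in the same order of libraries. Its normalized log2 differences with miR-200c were 1.11 against control miRNA and 1.12 against transfectant only. Both probes thus placed miR-200c highest and miR-141 lowest, though they are read from the same RNA and are not replicates. With miR-141 the differences of the brighter probe were -0.76 against control miRNA and -0.17 against transfectant only, and those of the second were -0.58 and -0.57, so the rule was not passed. Between the miRNAs, Cdkn1a was higher with miR-200c, by at least 3.23-fold with the background correction and offset used here, counted against the lowest signal detected on the miR-141 array. That size depended on both choices. The log2 difference for miR-141 minus miR-200c was -1.71, and it was -1.05 without background correction, -1.04 with the authors' deposited table and -1.16 with an offset of 50. Between the controls the probes disagreed, with control miRNA above transfectant only by 0.59 at the brighter probe and by 0.01 at the second.

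**Figure D1:**
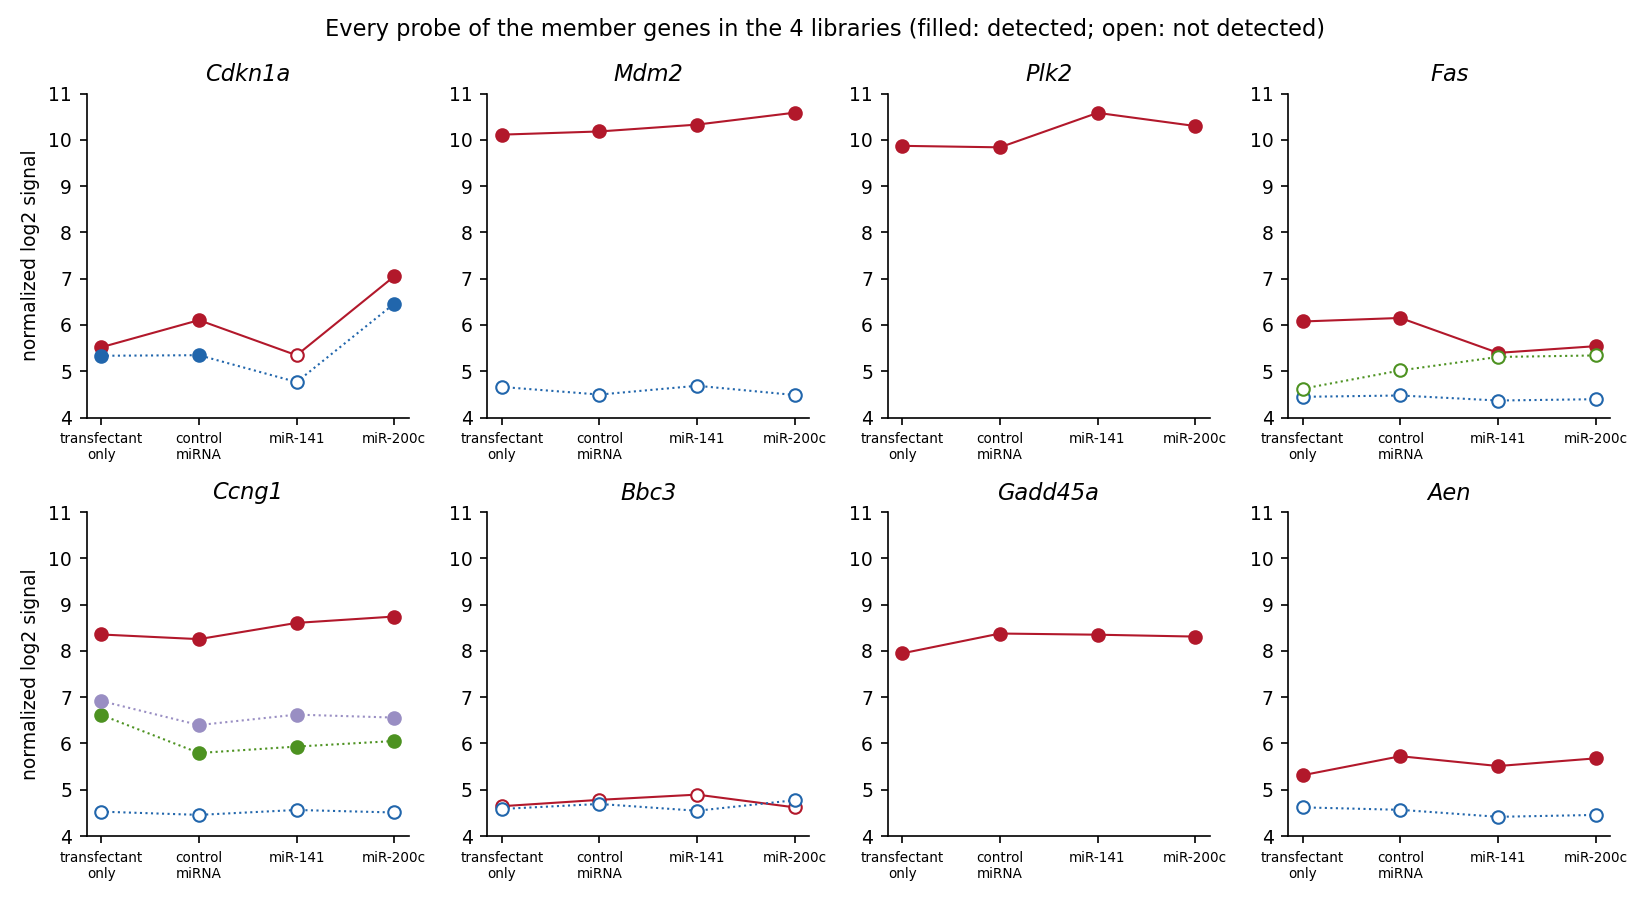
Normalized log2 signal (vertical axis) of all 17 probes in the 4 libraries (horizontal axis), 1 panel per gene, with the brightest probe as a solid line and the others dotted; filled points were detected and open points were not. Both Cdkn1a probes are highest with miR-200c, at 7.05 and 6.46, and only 1 of the 3 Fas probes was detected.

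Mdm2, the feedback inhibitor of p53, did not pass the rule. Its detected probe had raw signals of 1532 in transfectant only, 792 in control miRNA, 1307 with miR-141 and 1508 with miR-200c. After normalization these were 10.11, 10.18, 10.33 and 10.59, so that both miRNA libraries stood above both controls by small amounts. With miR-200c the log2 differences were 0.41 and 0.47 against control miRNA and transfectant only, above the control spread of 0.25, and with miR-141 they were 0.15 and 0.22, below it. By the smaller of the differences with miR-200c, 551 of 7202 genes considered were at least as high. The second Mdm2 probe, at raw signals from 42.3 to 55.4, was not detected in any library.

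Plk2, a polo-like kinase that p53 induces and that acts in centriole duplication, passed with miR-141. The raw signals of its only probe were 1309 in transfectant only, 633 in control miRNA, 1561 with miR-141 and 1255 with miR-200c, which became 9.87, 9.84, 10.58 and 10.30 after normalization. The controls were nearly level, at a log2 difference of -0.03, and both miRNA libraries were above them. With miR-141 the difference was 0.74 (1.68-fold) against control miRNA and 0.71 (1.64-fold) against transfectant only, with a control spread of 0.26, and 109 of 7188 genes considered were at least as high. With miR-200c it was 0.46 and 0.43, short of the rule, and miR-141 stood above miR-200c by 0.28.

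Ccng1, whose product cyclin G1 brings a phosphatase to Mdm2, was measured by 4 probes, of which 3 were detected in every library. The brightest had raw signals of 481, 228, 409 and 442 in transfectant only, control miRNA, miR-141 and miR-200c. Its normalized differences were 0.35 and 0.25 with miR-141, and 0.49 and 0.39 with miR-200c, against control miRNA and transfectant only. The other detected probes had raw signals of 163, 66.9, 87.0 and 89.9, and of 194, 84.5, 122 and 117. Both were highest in transfectant only, with differences from it of -0.68 and -0.29 with miR-141 and of -0.56 and -0.36 with miR-200c. The probes of Ccng1 therefore disagreed in direction against transfectant only, while all 3 were above control miRNA with either miRNA. The remaining probe, from 41.3 to 50.2 in raw signal, was not detected.

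Gadd45a, which binds PCNA and p21 and links damage to stress kinases, had raw signals of 366 in transfectant only, 247 in control miRNA, 346 with miR-141 and 336 with miR-200c. On the normalized scale the last 3 libraries lay within 8.31 to 8.38, and transfectant only was lower at 7.95. The differences from control miRNA were -0.03 with miR-141 and -0.07 with miR-200c, while 0.43 separated the controls themselves.

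Of the genes that act in cell death, Fas, the death receptor at the cell surface, was lower with miR-141. Its detected probe had raw signals of 120 in transfectant only, 76.4 in control miRNA, 69.1 with miR-141 and 70.2 with miR-200c. After normalization, signals of 6.08 and 6.15 in the controls lay above 5.40 with miR-141 and 5.54 with miR-200c. With miR-141 the log2 differences were -0.75 (1.69-fold lower) against control miRNA and -0.68 (1.60-fold lower) against transfectant only, beside a control spread of 0.42, and 167 of 7188 genes were at least as low. With miR-200c they were -0.61 and -0.53, so that only the first reached the rule. The call with miR-141 was lost without background correction, where the differences were -0.41 and -0.37, and with the values of the authors' deposited table, where they were -0.40 and -0.39, and with an offset of 50 on the log2 scale, where they were -0.46 and -0.41. Another Fas probe, which matches a different transcript record and was not detected in any library, ran the other way, at 0.29 and 0.69 with miR-141 and 0.32 and 0.72 with miR-200c. The last Fas probe was likewise undetected, at raw signals from 38.4 to 46.7.

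Aen, a nuclease induced by p53 that promotes apoptosis, was close to background, with raw signals of 78.5, 65.4, 72.3 and 74.9 in transfectant only, control miRNA, miR-141 and miR-200c. Its normalized differences from control miRNA were -0.21 with miR-141 and -0.05 with miR-200c, while from transfectant only they were 0.20 and 0.36, all within the control spread of 0.39. A second Aen probe was not detected, at raw signals from 41.0 to 53.9. Bbc3, which encodes the BH3-only killer protein PUMA, was not detected by either of its probes, whose raw signals ran from 46.6 to 56.7. No difference in Bbc3 was detectable at these signals.

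**Figure D2:**
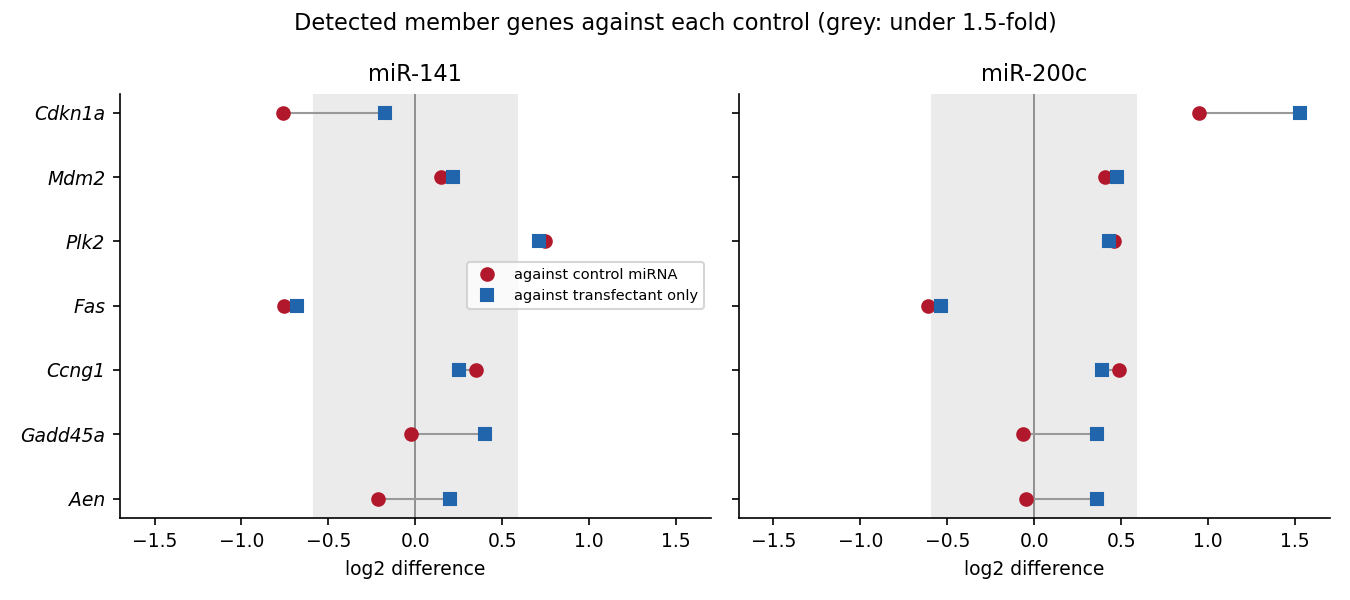
Log2 difference (horizontal axis) of the 7 detected genes with miR-141 (left) and miR-200c (right), against control miRNA (circles) and transfectant only (squares), with differences under 1.5-fold in grey. Cdkn1a lies beyond the grey band at 0.95 and 1.53 with miR-200c, and Plk2 (0.74 and 0.71) and Fas (-0.75 and -0.68) lie beyond it with miR-141.

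In counts, 1 of the 7 members considered passed as higher with miR-141 (Plk2), beside 2.37% of all genes considered, and 1 as lower (Fas), beside 3.14%. With miR-200c 1 of 7 was higher (Cdkn1a), beside 4.07%, and 0 of 7 were lower, beside 4.55%. No member passed with both miRNAs. Between the miRNAs 1 of 7, Cdkn1a, differed, being higher with miR-200c, beside 4.53% of genes that were lower with miR-141 and 4.01% that were higher. Between the controls the only member past the size was again Cdkn1a, at a log2 difference of 0.59 for control miRNA minus transfectant only, beside 3.16% of genes higher and 4.51% lower. With so few members, 1 call among 7 does not set these genes apart from the array.

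Disregarding size, 4 of 7 members were above both controls with miR-200c (Cdkn1a, Mdm2, Plk2 and Ccng1), beside 37.9% of genes, and Fas was below both, beside 34.3%. With miR-141, 3 were above both controls (Mdm2, Plk2 and Ccng1), beside 37.7%, and Cdkn1a and Fas were below both, beside 32.1%. Ccng1 is counted in both by its brightest probe alone, since the mean of its detected probes was below transfectant only, at -0.18 with miR-200c and -0.24 with miR-141. Cdkn1a is counted as below both controls with miR-141 from a signal that was not detected. Its brighter probe differed from transfectant only by -0.17, within the control spread of 0.41. The median over the 7 members with miR-200c was 0.41 against control miRNA and 0.39 against transfectant only, where the median over 7734 detected genes was -0.0049 and 0.010. The first of these was 0.18 when detection in all 4 libraries was required, which leaves 6 members without Cdkn1a, and also at a detection p-value under 0.05, which lets in Bbc3 as an eighth. With miR-141 the members' median was -0.03 and 0.22, where that of all genes was 0.0099 and 0.022, and the first changed sign under the same settings, to 0.06 and 0.04. The miRNAs share both control libraries in these values.

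The wider pathway was described by 7 lists holding 95 other genes, of which 91 had a probe and 61 were detected. With miR-141, 0 of 57 genes considered were higher and 2 were lower, and with miR-200c 1 of 59 was higher and 4 were lower, beside the same array-wide shares as above. The median difference from control miRNA over the detected genes of all lists was -0.0074 with miR-141 and -0.03 with miR-200c. These are medians over 61 genes, where the 7 members had the values given above.

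The list of p53 targets in metabolism and redox balance held 3 of the genes that passed. Ak1, an adenylate kinase, had raw signals of 735 in transfectant only, 406 in control miRNA, 297 with miR-141 and 243 with miR-200c. It was lower with both miRNAs, by log2 differences of -1.08 and -0.90 with miR-141 and of -1.39 and -1.20 with miR-200c against control miRNA and transfectant only. Ephx1, an epoxide hydrolase, passed as lower with miR-141, at -0.76 and -1.27, and was at -0.48 and -0.98 with miR-200c. Slc19a2, a thiamine transporter, passed as lower with miR-200c, at -0.59 and -0.81, and was at -0.51 and -0.73 with miR-141. Both genes were thus below both controls with either miRNA, and only the size set by the rule separated their calls. The list's median over 7 detected genes was -0.26 against control miRNA with miR-141 and -0.48 with miR-200c, or -0.31 for the latter with undetected values at their bound. Against transfectant only it was -0.40 with miR-141 and -0.25 with miR-200c, or -0.09 for the latter with undetected values at their bound. No gene passed in the lists of p53 targets in cell cycle and repair (7 detected) or in apoptosis and survival (9 detected) with either miRNA, and their medians against control miRNA lay between -0.17 and 0.01, or up to 0.03 with undetected values at their bound. Against transfectant only these medians lay between -0.34 and 0.14. The lowest, that of apoptosis and survival with miR-141, was 0.05 with undetected values at their bound.

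Sesn3, a sestrin paralog of Sesn1, had raw signals of 1012 in transfectant only, 389 in control miRNA, 459 with miR-141 and 206 with miR-200c. It was lower with miR-200c, at log2 differences of -1.59 and -1.97, and lower than with miR-141 by 1.25 on the log2 scale. It was the only one of 9 detected genes among paralogs and death receptor partners to pass. Bok, a pro-apoptotic relative of Bax, was lower with miR-200c at -0.82 and -0.78, the only call among 8 detected BCL2 family genes. Mcl1 and Bcl2l1, survival genes of that family, did not pass. Mcl1 differed by 0.09 with miR-141 and 0.17 with miR-200c against control miRNA, and by -0.24 and -0.15 against transfectant only. Bcl2l1 was at 0.22 and 0.17 against control miRNA, while against transfectant only it was past the size of the rule with both, at 0.66 and 0.61.

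Among the partners of p21, the cyclin gene Ccne2 passed as higher with miR-200c at 0.82 and 0.78, but it was detected in that library alone. Its raw signals were 63.0, 49.5, 46.4 and 74.3 in transfectant only, control miRNA, miR-141 and miR-200c, and the difference was at least 1.26-fold and at least 1.30-fold, under the size of the rule. Ccnd1, cyclin D1, differed from control miRNA by 0.17 with miR-141 and by -0.01 with miR-200c. Pcna, the replication clamp that p21 binds, was at -0.23 and -0.17 against control miRNA and at -0.71 and -0.65 against transfectant only. Among 9 detected regulators of p53 none passed with either miRNA. The p53 inhibitors Mdm4 and Ppm1d were below detection in every library, and Trp53, the gene of p53 itself, had no probe of that name in the annotation used.

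Between the miRNAs, 6 of 60 listed genes considered differed, 2 being higher with miR-141, beside 4.01% of all genes, and 4 with miR-200c, beside 4.53%. The genes of these not yet named were chosen after their values were seen. Besides Sesn3, the growth arrest gene Gadd45g was higher with miR-141, by 0.74. Tigar, which lowers glycolytic flux, was higher with miR-200c at -0.77 for miR-141 minus miR-200c. Ccne2, the receptor gene Eda2r and the autophagy gene Dram1 were also higher with miR-200c, but all 3 were below detection with miR-141, and their differences were at least 1.23-fold, at least 1.14-fold and at least 1.15-fold. Dram1 with miR-200c was level with control miRNA, at 0.01, and below transfectant only, at -0.68.

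**Figure D3:**
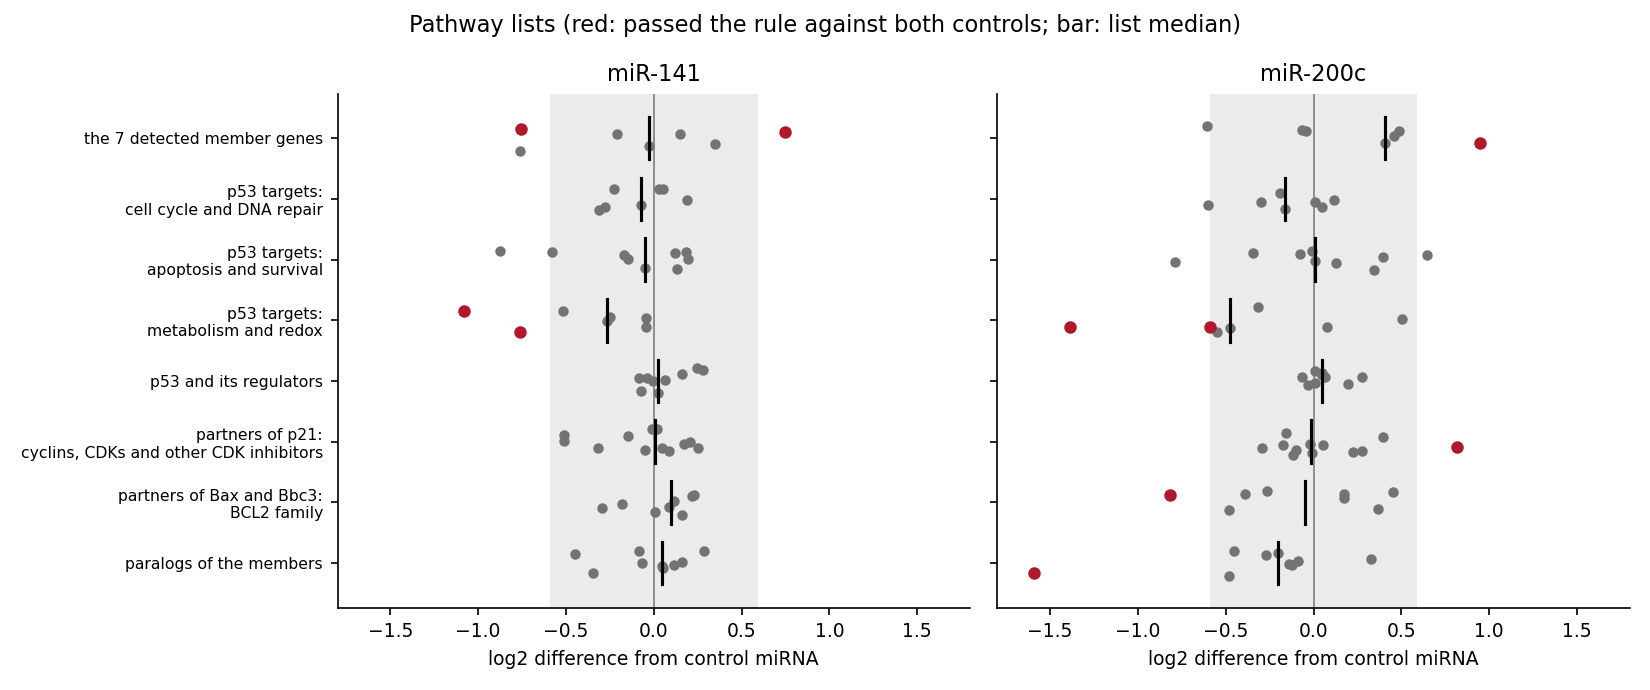
Log2 difference from control miRNA (horizontal axis) of each detected gene in the 7 pathway lists and of the 7 detected member genes, with miR-141 (left) and miR-200c (right); red points passed the rule against both controls, black bars are list medians and grey marks differences under 1.5-fold. Most genes lie in the grey band, and the bar of the members with miR-200c stands at 0.41, or at 0.18 over the 6 members detected in all 4 libraries.

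The genes whose pattern over the 4 libraries was nearest to that of Cdkn1a were sought among 6485 genes detected in all libraries, by the root mean square difference of their centred log2 signals. Cdkn1a was taken by its brighter probe, whose signal with miR-141 was below detection. That probe put control miRNA above transfectant only by 0.59, where the second probe gave 0.01. Nearest was Txnip, which encodes an inhibitor of thioredoxin, at 0.12, with log2 signals of 6.03 in transfectant only, 6.32 in control miRNA, 5.74 with miR-141 and 7.31 with miR-200c. Next came Cdk19, a kinase of the Mediator complex, also at 0.12, Ffar4, a fatty acid receptor gene, at 0.25, the cell cycle factor gene E2f2 at 0.27 and the MHC class I gene H2-D1 at 0.27, whose close relatives may share its probe. All 5 were highest with miR-200c. In Ffar4 and E2f2 the lowest library was transfectant only, unlike Cdkn1a, Txnip, Cdk19 and H2-D1, which were lowest with miR-141. With only 4 libraries and 6485 genes, near patterns of this kind are a description.

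**Figure D4:**
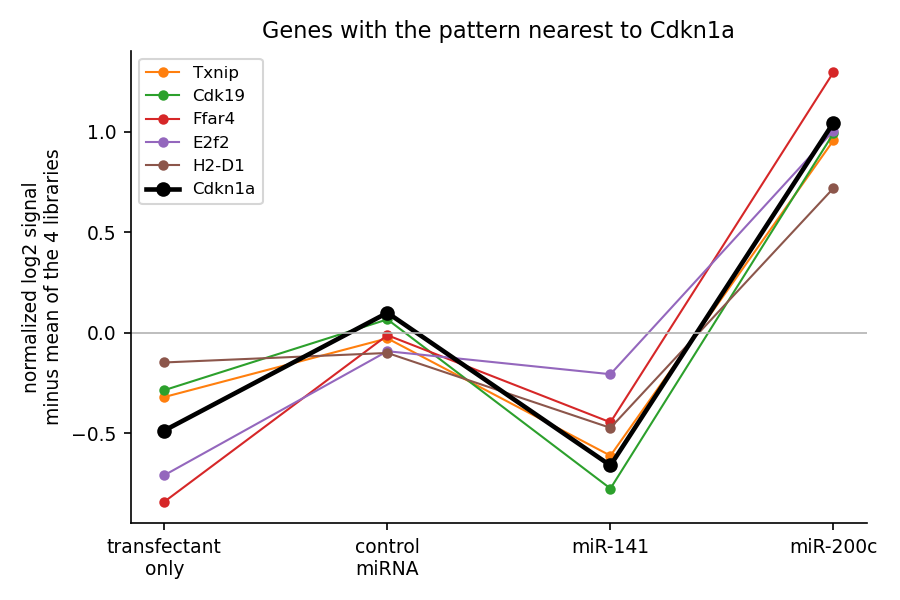
Normalized log2 signal minus the mean of the 4 libraries (vertical axis) of Cdkn1a (black, brighter probe only) and the 5 genes nearest to it, by library (horizontal axis). All 6 genes peak with miR-200c, and Txnip and Cdk19 follow Cdkn1a to within 0.12 root mean square.

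The labelled cell type was checked against marker genes. Vim, Fn1, Col1a1 and S100a4 were detected in every library, while Thy1, Pdgfra, Fap, Col1a2 and Col3a1 were below detection in all 4, so 5 of 10 fibroblast markers, Pdgfrb included, were detected at all. On the normalized scale Pdgfrb and S100a4, 2 of these 5, passed the rule as lower in the miR-141 library, and 3 did in the miR-200c library, where Col1a1 joined them. S100a4 differed from control miRNA by -0.93 with miR-141 and by -1.36 with miR-200c. Pdgfrb was lower too, but it was not detected with either miRNA, so its calls rest on values below detection and their size was not measured. Col1a1 was at -1.09 and -0.69 with miR-200c. The median over the 5 was -0.53 and -0.18 with miR-141 and -1.09 and -0.69 with miR-200c. The summed raw signal of the list was 21058 in transfectant only, 13572 in control miRNA, 15462 with miR-141 and 12276 with miR-200c. Such raw sums carry the differences in mean signal between the arrays and cannot be compared directly. The part of the fibroblast markers in the members' differences was not tested. Of 8 epithelial markers only Krt8 was detected, at raw signals of 46.5 in transfectant only, 42.7 in control miRNA, 98.3 with miR-141 and 250 with miR-200c. It passed the rule as higher with both miRNAs. The summed raw signal of the epithelial list was 318 and 370 in the controls, 409 with miR-141 and 557 with miR-200c. These sums too are not comparable directly between libraries. All listed genes but Krt8, Cdh1 and Epcam among them, were below detection throughout, so beyond Krt8 the sums are background signal. The part of the epithelial list in the Cdkn1a difference was not tested. None of 5 leukocyte markers with a probe was detected, and 2 of 6 endothelial, 1 of 4 adipocyte and 1 of 5 muscle markers were. The muscle marker, Acta1, passed as higher with miR-200c, at 0.70 and 0.82, and its part in the Cdkn1a difference was not tested either.

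How far the calls hold depended on the handling of dim signals. Cdkn1a with miR-200c passed under every processing that kept it in the comparison, with differences from 0.64 to 1.03 against control miRNA and from 0.95 to 1.54 against transfectant only. Plk2 with miR-141, a bright signal, lay between 0.72 and 0.76 and between 0.69 and 0.79. Fas with miR-141, a dim one, ranged from -0.75 to -0.40 and from -0.68 to -0.37.

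**Figure D5:**
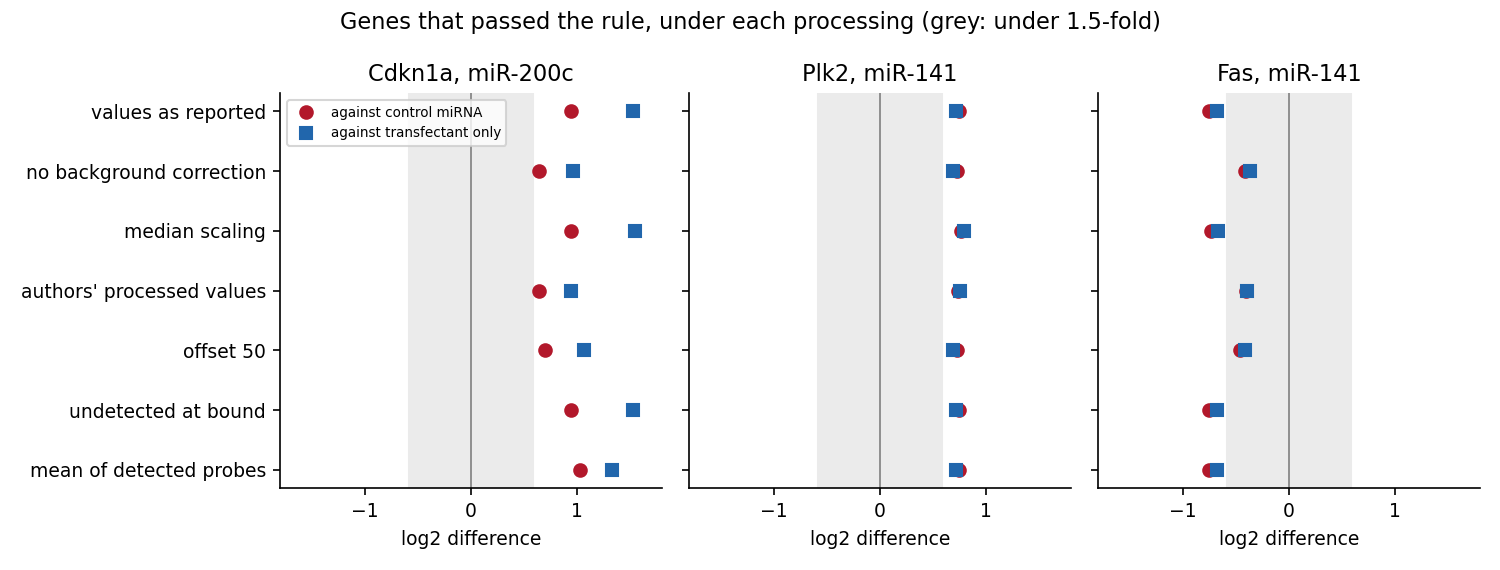
Log2 difference (horizontal axis) of Cdkn1a with miR-200c and of Plk2 and Fas with miR-141, against control miRNA (circles) and transfectant only (squares), under 7 ways of processing the same arrays (vertical axis); differences under 1.5-fold are in grey. Cdkn1a and Plk2 stay outside the grey band in all 7, and Fas falls within it in 3.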

How the data were processed

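The authors deposited an average bead signal intensity and a detection p-value per probe and array, not normalized, per the file headers. The submitters' processing notes list GenomeStudio (its version is not given in the sources used here). Beside these stands a processed version. The authors' deposited table of processed intensity values was, for each array, a straight line of its raw signals to within 0.0113 units, so its scale was linear and its genes were not centred; how the lines were chosen stays unknown. The column medians were 46.3, 44.7, 45.0 and 45.8 for transfectant only, control miRNA, miR-141 and miR-200c.

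Raw signals of all 4 arrays were corrected for background by normexp, normalized by quantiles and, after adding an offset of 16, log2-transformed (neqc, limma 3.58.1, R 4.3.3). This removes any shift shared by most genes. The rest was done with pandas 2.3.3 and numpy 2.4.6 under Python 3.11.15, and plots with matplotlib 3.10.9. The platform annotation gave 1 symbol to 29976 of 46632 probes, several to 10 and none to 16646; by Entrez identifier, 29921 were found in RefSeq (GRCm38.p6) and 0 were renamed. Each gene was represented by its brightest probe. Between 11339 and 11747 probes were detected per array.

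A gene below detection on 1 side has a bound: "at least" sets the brighter value against the dim array's lowest detected signal (5.29 to 5.37 in log2), or against the dim value itself where that is higher. Genes were named by a fixed rule: all members with every probe, up to 4 passing genes per list, Trp53, Mdm4, Ppm1d, Pcna, Ccnd1, Mcl1 and Bcl2l1, and the 5 genes nearest in pattern to Cdkn1a. Gadd45g, Tigar, Eda2r and Dram1 were named outside it, after their values were seen, and marker genes come from marker lists of 6 cell types. The members and lists were chosen with earlier results of these data known. The library called transfectant only has "none" in its transfection field.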

Additional observations from a re-analysis of the deposited data

How the results depend on the processing

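No paired analysis was possible because each group had 1 library, and for the same reason no library could be left out within a group. The median difference over the members depended on which genes entered it. With miR-200c against control miRNA it was 0.41, and 0.18 both with detection in all 4 libraries and at a detection p-value under 0.05; with miR-141 against control miRNA it was -0.0253, and 0.0615 and 0.0438 under those settings. For miR-141 minus miR-200c it was -0.1445, and -0.0862 without background correction and -0.0797 with the authors' processed values. For control miRNA minus transfectant only it was 0.08, and 0.14 with median scaling and 0.13 with the authors' values. Requiring detection or relaxing it does not change the value of a single gene. The other settings changed 183 single-gene differences of detected members, 168 by less than 0.30, the standard deviation of the difference between the controls over genes detected in all libraries, and 15 by more. Of the differences past 1.5-fold, 0 changed sign. The count of members passing with miR-141 was 2. It was 1 (Plk2) without background correction, with the authors' processed values and with an offset of 50, and 3 (Cdkn1a and Fas lower, Plk2 higher) against control miRNA alone. With miR-200c it was 1, and it was 2 (Cdkn1a higher, Fas lower) against control miRNA alone and 0 when detection in all 4 libraries was required, which leaves out Cdkn1a. The last setting also gave 0 in place of 1 between the miRNAs. Between the controls the 1 member, Cdkn1a, stood at the size of the rule, and the count was 0 without background correction, with the authors' values, with an offset of 50, with detection in all 4 libraries and with the mean of all detected probes. With the authors' deposited table the difference of Cdkn1a with miR-200c was 0.64 from control miRNA and 0.95 from transfectant only. With the mean of detected probes Ccng1 with miR-200c was 0.30 from control miRNA and -0.18 from transfectant only. The signals of Cdkn1a, Fas and Aen lie close to background, where the correction and the offset set the size of a difference, so the limit here is signal and not only the number of arrays.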
